A study of Mus musculus with 6 samples.

Results

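The respiratory chain genes of mouse pancreatic acini were taken as the protein-coding genes whose symbols begin with Nduf (followed by a, b, c, s or v), Uqcr, Cox4 to Cox8, Atp5 or mt-. By this rule 106 of the 56953 genes counted were members, of which 93 are encoded in the nucleus and 13 in the mitochondrial genome. RNA was sequenced from 6 cultures of acini, the enzyme-secreting units of the exocrine pancreas, on day 3 of an assay of acinar-to-ductal metaplasia outside the body, in which acini embedded in Matrigel take on a duct-like form. The groups, of 2 libraries each, were acini of wild-type mice (WT), acini of mice labelled as a Dkk3 knockout (DD), and DD acini that received recombinant DKK3 (DD + rDKK3). DKK3 is a secreted glycoprotein of the Dickkopf family. All cultures shared the same medium, Waymouth's with serum, trypsin inhibitor and dexamethasone. Transcripts with exon 2, which encode the secreted protein, are lost with this allele, and a shorter intracellular isoform starts from a later site.

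The labels give ages of 10 and 11 weeks for WT, 12 and 13 weeks for DD, and 14 and 15 weeks for DD + rDKK3, so that age and group cannot be told apart. These ages rise by 1 week from each sample to the next, and whether they are true ages was not tested. They do not say which cultures came from separate animals, and p-values therefore measure only the spread between these samples. Library totals ranged from 12018473 to 19750401 counts. Dkk3 itself was read 1 to 11 times per library in all 3 groups, too few to check the genotype. WT 2, the library labelled female among libraries labelled male, held 722 counts of the Y-linked gene Ddx3y, the highest level of the 6 libraries at 50.7 CPM (counts divided by the scaled library total and set to a common size). The same library held 16 counts of Xist, the RNA of the inactive X chromosome, which had 0 in the other 5. Acinar identity was evident in all libraries, in which 34 digestive enzyme genes took 14.7% to 20.9% of the counts. DD 2 and DD + rDKK3 2 stood apart by their fibroblast and stellate cell transcripts, as 17 markers, 15 of which passed the filter and none of which was at 0 throughout, summed to 1703 and 1676 CPM there and to between 218 and 399 CPM elsewhere, with Col1a1 at 252 and 304 CPM against 10.5 to 49.8 CPM. Macrophage markers (12 genes) also summed highest there, to 282 and 219 CPM against 61.5 to 151 CPM elsewhere, though Cd68 did not follow. Endothelial markers (10 genes) summed to 201 and 185 CPM against 116 to 178 CPM, though Kdr, Vwf and Esam were highest in WT 2 and Cldn5 in WT 1. The part of these cells in the results below was not tested. Medians over all nuclear members, by complex and by role are given with and without these libraries. Medians by module, promoter match and related list are given with all libraries only.

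The respiratory chain is the series of inner-membrane complexes that passes electrons from NADH and succinate to oxygen and stores the energy as a proton gradient. Complex I (NADH dehydrogenase) feeds electrons to ubiquinone, complex III (the cytochrome bc1 complex) passes them to cytochrome c, complex IV (cytochrome c oxidase) hands them to oxygen, and complex V (ATP synthase) uses the gradient to make ATP. All of these complexes are mosaics, in which a few hydrophobic subunits are made inside the organelle and the rest are imported from the cytosol, and acinar cells spend much ATP on enzyme synthesis and secretion. Core subunits, as classed here, are those that carry electrons in complexes I and III and, in complex V, the F1 head with its stalk and the c-ring. All other structural subunits are counted as supernumerary, among them those of the peripheral stalk of complex V, and assembly factors help build the complex without staying in it.

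Before the values, the sequence around the mitochondrial genes has to be shown, because it bears on which of them the counts could measure. In genome build GRCm39, bases 6390 to 11042 of the mitochondrial genome, chrM:6390-11042, are present a further time on the minus strand of chromosome 1, chr1:24650616-24655269. The alignment spans 4654 columns at 99.936% identity, with 2 mismatches and 1 gap. Positions are counted from 1 at the first base of the mitochondrial sequence, and capitals mark the base that differs in the alignment. The first mismatch, A6393T, lies in mt-Co1, the second, T9461C, in mt-Nd3, and the extra base of the copy, next to position 9829, in the tRNA gene mt-Tr. The windows below are all that separates the organelle from the nuclear copy over this stretch.
mt-Co1, chrM:6390-6413: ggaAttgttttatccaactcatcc
chromosome 1 copy of it: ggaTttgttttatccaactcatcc
mt-Nd3, chrM:9441-9481: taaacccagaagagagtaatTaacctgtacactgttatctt
chromosome 1 copy of it: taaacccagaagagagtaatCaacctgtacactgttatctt
mt-Tr, chrM:9809-9848: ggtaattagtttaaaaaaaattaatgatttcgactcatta
chromosome 1 copy of it: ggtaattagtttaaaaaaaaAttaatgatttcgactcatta

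The stretch holds 6 of the 13 mitochondrial genes from end to end, namely mt-Co2 and mt-Co3 of complex IV, mt-Atp6 and mt-Atp8 of complex V, and mt-Nd3 and mt-Nd4l of complex I. Of their 50-base windows, the length of 1 sequenced read, 99.0% in mt-Nd3 and 100% in each of the other 5 occur exactly elsewhere in the genome. The share was 62.2% in mt-Nd4, of which 63.6% of the bases lie in the stretch. It was 51.1% in mt-Co1, of which 31.3% of the bases lie in it. It was 8.29% in mt-Nd2, 7.61% in mt-Nd5 and 0 in mt-Nd1, mt-Nd6 and mt-Cytb. Some of these genes also share bases with each other on the same strand, shown in capitals below. mt-Atp8 and mt-Atp6 overlap by 43 bases, in chrM:7927-7969, and mt-Nd4l and mt-Nd4 by 7 bases, in chrM:10167-10173. In union counting, a read over such an overlap belongs to neither gene.
mt-Atp8 and mt-Atp6, chrM:7912-7984: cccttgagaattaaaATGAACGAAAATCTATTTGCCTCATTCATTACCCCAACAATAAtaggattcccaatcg
mt-Nd4l and mt-Nd4, chrM:10152-10188: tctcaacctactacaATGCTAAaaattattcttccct

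The 6 genes inside the stretch were almost unread. Together they had 61 counts in WT 1, 46 in WT 2, 85 in DD 1, 71 in DD 2, 48 in DD + rDKK3 1 and 82 in DD + rDKK3 2. The other 7 mitochondrial genes had 126170 to 255887 counts per library. The contrast stands between neighbours of 1 transcript and within 1 enzyme.

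mt-Co1 and mt-Co2 encode the subunits of complex IV that carry its metal centers. mt-Co1 was measured at 4091 and 3188 CPM in WT, 3496 and 3511 in DD and 2657 and 4587 with rDKK3. mt-Co2 was at 1.87 and 0.421 CPM in WT, 1.14 and 0.764 in DD and 0.264 and 0.752 with rDKK3. mt-Co3, the remaining mitochondrial subunit of the enzyme, had 6 to 19 counts per library. mt-Atp6, the proton channel subunit of ATP synthase, had 4 to 13 counts. mt-Atp8, its small partner, had 2 counts in DD + rDKK3 2 and 0 in the other libraries. mt-Nd3 had 20 to 39 counts and mt-Nd4l 0 to 5, both being membrane subunits of complex I. The 7 annotated pseudogenes of the chromosome 1 copy (Gm28439, Gm10222, Gm28438, Gm28437, Gm10925, Gm28661 and Gm29216) held 0 to 24 counts each, so that the reads were not placed there either. Whether the alignment step set such reads aside was not tested, as the reads were not analysed here. Values of these 6 genes are not used as levels below.

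**Figure D1:**
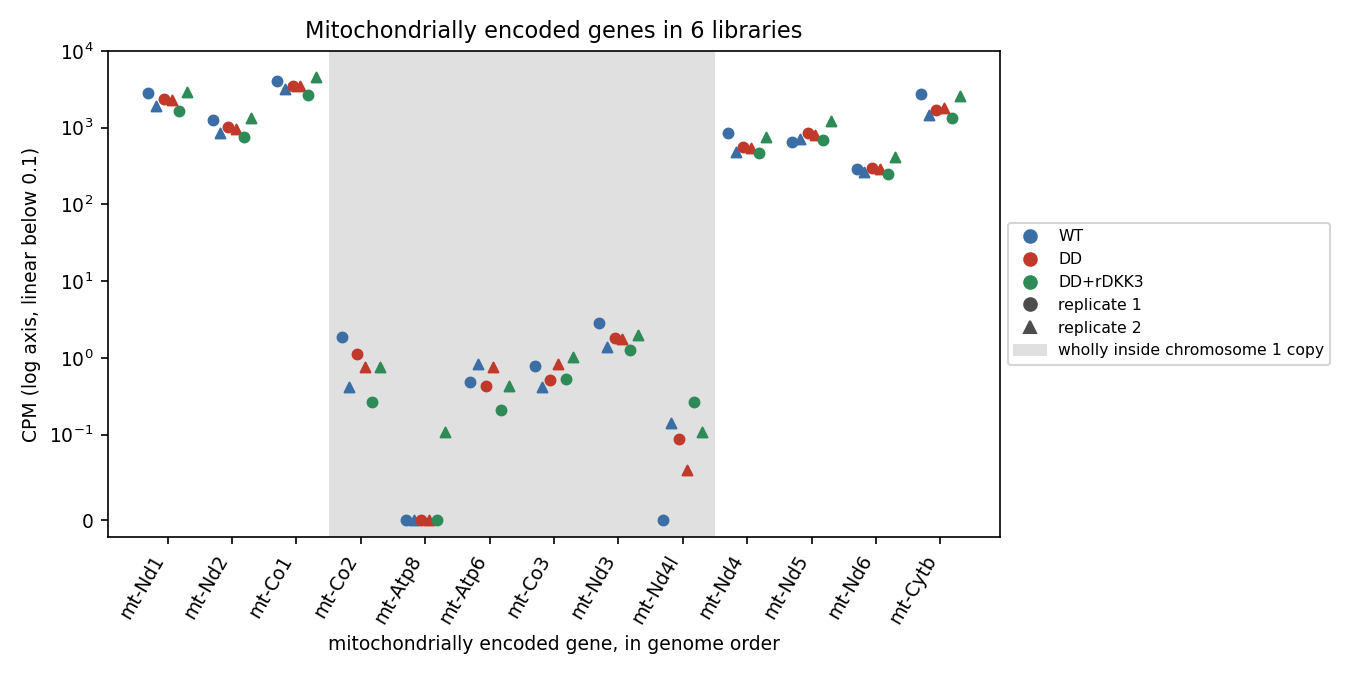
CPM of the 13 mitochondrially encoded genes in genome order (x axis) in 6 libraries (y axis, log scale that is linear below 0.1), with colors for groups, circles for replicate 1 and triangles for replicate 2. The 6 genes wholly inside the chromosome 1 copy (gray) stayed under 3 CPM, and the other 7 lay between 252 and 4587 CPM.

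The same measure was taken for the nuclear genes, many of which have processed pseudogenes. Of the nuclear members tested, 64 had under 10% of their 50-base windows copied exactly elsewhere and 21 had 10% or more. The most copied were Atp5g2 with 88.4% and Atp5g1 with 84.4%, which encode the c-ring of ATP synthase together with Atp5g3 (0%). Ndufs5 followed with 75.5%, Cox7c with 71.5%, Atp5l with 68.7% and Uqcrb with 58.7%. These genes were read, at levels per kilobase of the canonical transcript of 70.3, 127, 44.9, 194, 38.3 and 218 CPM in the order named, but their levels are uncertain because reads of the copied part may have been lost or shared.

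**Figure D2:**
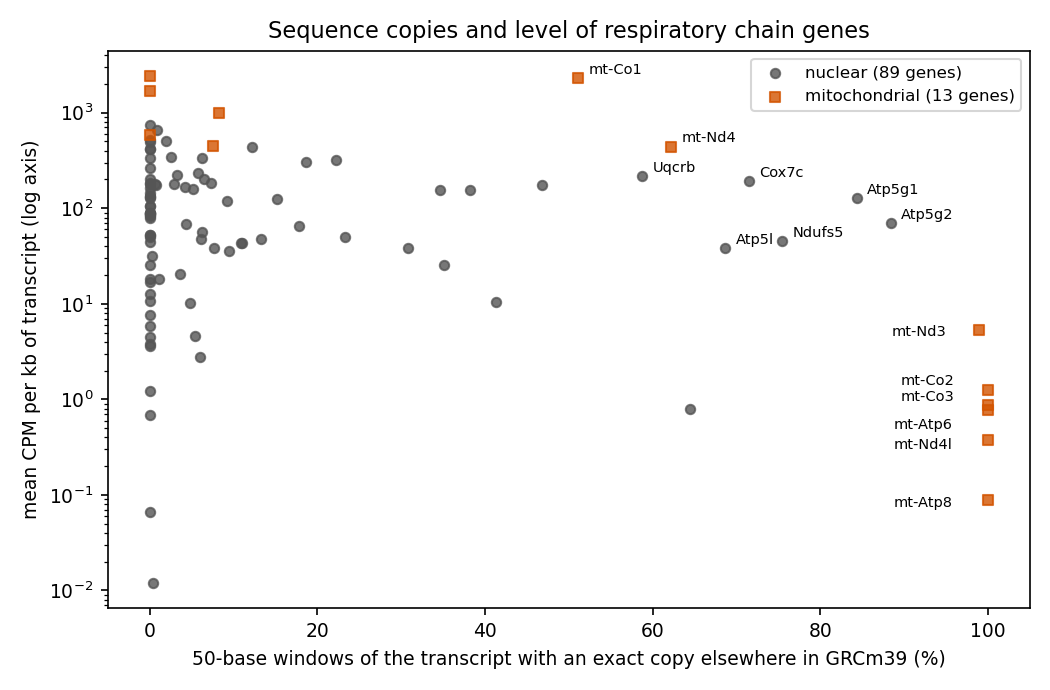
Share of 50-base windows with an exact copy elsewhere in GRCm39 (x axis, percent) against the mean CPM per kilobase of canonical transcript over 6 libraries (y axis, log scale) for members with any count, nuclear genes as circles and mitochondrial genes as squares. The 6 mitochondrial genes at 99% to 100% lay far below the other mitochondrial genes, whereas nuclear genes with up to 88.4% copied were still read.

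Of the 106 members, 96 passed the filter on low counts and were tested, 85 of them nuclear and 11 mitochondrial. Of the nuclear genes that did not pass, Cox6a2, Cox6b2, Cox7b2, Cox8b and Cox8c are isoforms of complex IV subunits used in muscle, testis or other tissues, Cox5b-ps and Ndufb11b are annotated copies with no known place in a complex, and 1 of 2 entries named Atp5o had 0 counts. mt-Nd4l and mt-Atp8 did not pass either. Levels between nuclear genes are compared per kilobase of the canonical transcript.

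In complex I, the nuclear gene with the highest level per kilobase was Ndufa6 at 415 CPM, and the lowest was the assembly factor Ndufaf1 at 2.76 CPM. In complex III, Uqcr10 was highest at 265 CPM per kilobase and Uqcr11 lowest at 35.5. In complex IV, Cox4i1 was highest at 750 CPM per kilobase and its isoform Cox4i2 lowest among the tested genes at 1.23. In complex V, Atp5b, the catalytic beta subunit, was highest at 658 CPM per kilobase, and Atp5l, whose sequence is largely copied, lowest at 38.3. The extremes of complex IV were thus both isoforms of the same subunit.

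Summed over all 93 nuclear members, the level was 15830 and 13290 CPM in WT, 11680 and 13890 in DD and 11790 and 11780 with rDKK3. Group means were 14560 ± 1791 (SD, n = 2) for WT, 12790 ± 1564 for DD and 11780 ± 9.63 for DD + rDKK3. WT 1 was the highest library, DD 2 lay inside the range of WT, and both DD + rDKK3 libraries lay below WT. CPM are scaled here by TMM, which sets the bulk of genes equal between libraries. As a share of all counts, without that scaling, the nuclear members took 1.34% and 1.32% in WT, 1.25% and 1.46% in DD and 1.20% and 1.23% with rDKK3, so that WT lay inside the range of DD on this scale. In bulk RNA, fewer cells of a type and less RNA per cell cannot be told apart.

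Gene by gene, the nuclear members went up and down together between libraries. The mean over the 85 tested members of log2 CPM, centered on each gene's mean, was 0.35 and 0.06 in WT, -0.23 and 0.14 in DD and -0.18 and -0.15 with rDKK3. The pooled SD within groups was 0.19. The same mean over all 14738 genes tested lay between -0.05 and 0.07. In complex I the values were 0.37 and 0.09 in WT, -0.20 and 0.08 in DD and -0.16 and -0.18 with rDKK3. Complex III and complex V followed the same order of libraries at its ends, with WT 1 highest and DD 1 lowest in each. Complex IV had the widest spread, from 0.35 in WT 1 to -0.40 in DD 1, with 0.31 in DD 2.

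**Figure D3:**
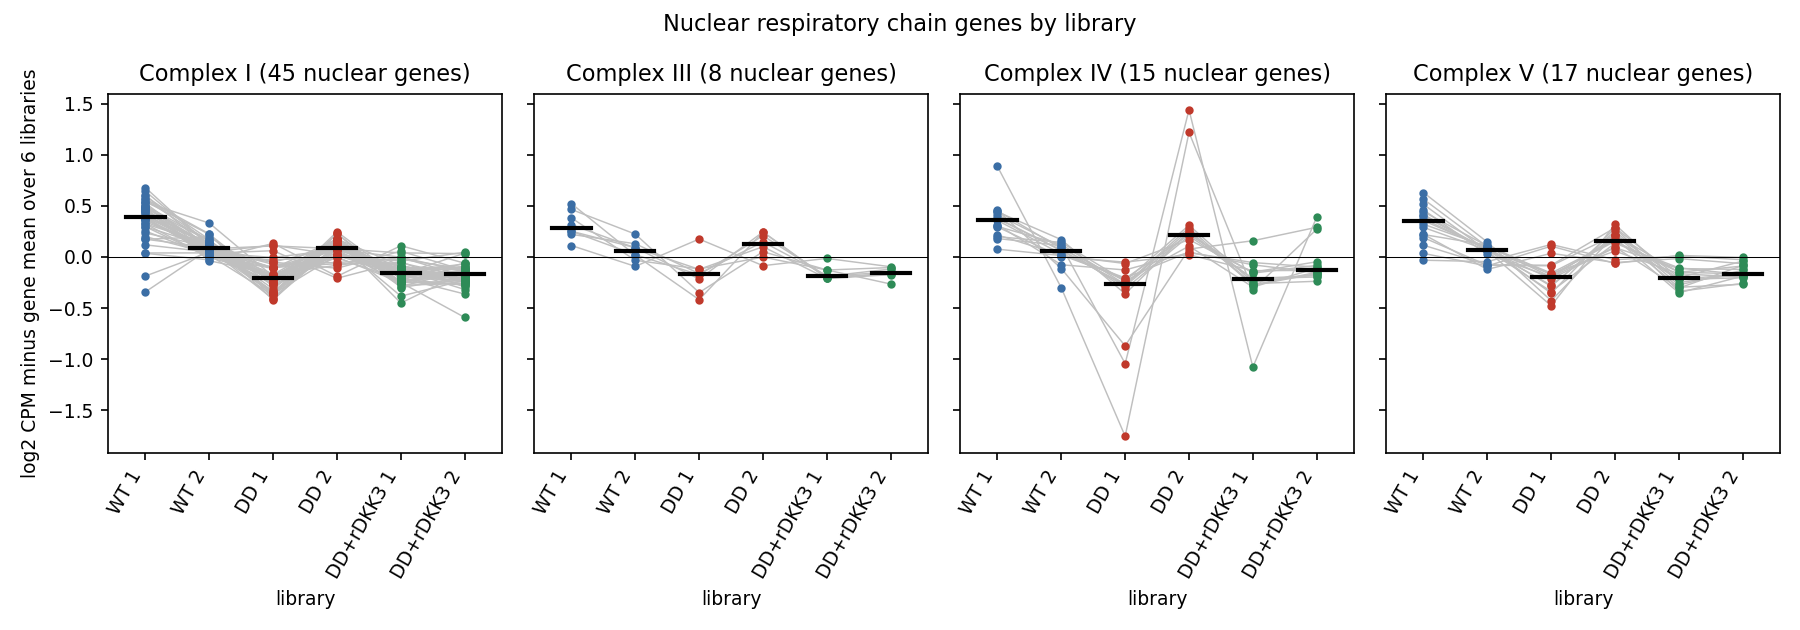
log2 CPM minus each gene's mean over the 6 libraries (y axis) in each library (x axis) for the tested nuclear genes of complexes I, III, IV and V, with 1 gray line and 6 points per gene and a black bar at the median. WT 1 was highest and DD 1 lowest in all 4 panels by the mean over genes (0.35 and -0.23 over all 85 genes), and the lines that leave the bundle in complex IV are Cox4i2, Ndufa4l2 and Cox7a1.

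DD was first set against WT, which addresses the loss of the secreted protein. No respiratory chain gene was called by edgeR's quasi-likelihood test at an adjusted p under 0.05, against 6 of 14738 genes, or 0.0407%. The lowest adjusted p of a member was 0.586. DESeq2 and limma-voom called no member either, against 0.513% and 0.0543% of the genes they tested, and edgeR without the filter on low counts called none against 1.99%. At an unadjusted p under 0.05, 4 of 85 nuclear members were lower and 0 higher, where 3.99% of all genes tested were lower and 4.27% higher. The count of 4 moved in both directions when 1 library was left out. Such fits leave 1 library in a group, so no counts of members are given for them. The nuclear members had a median log2 fold change of -0.26, and 76 of 85 were below 0, beside a median of 0.02 and 48.3% below 0 for all genes. In 24 members both DD libraries lay below both WT libraries and in 2 above, against 19.7% and 18.1% of all genes. The median without WT 1 was -0.09 and without DD 1 was -0.08. Without DD 2 it was -0.45, and without both replicates 2 of the Dkk3-null groups -0.45.

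Complex I had the lowest median of the 4 complexes in this comparison, -0.30 over 45 genes, of which 43 were below 0. In 22 of them DD lay below WT without overlap and in 1 above, against 19.7% and 18.1% of all genes. The N module, which oxidizes NADH, had a median of -0.34 over 10 genes, the Q module, which reduces ubiquinone, -0.20 over 6, and the nuclear genes of the membrane arm -0.31 over 21. Complex III had a median of -0.19 over 8 genes, complex IV -0.18 over 15 and complex V -0.23 over 17. Of the tested members outside complex I, only Uqcrq and Atp5c1 were lower without overlap. Without DD 2 the medians of complexes I, III, IV and V were -0.45, -0.33, -0.50 and -0.40, and without DD 1 they were -0.15, -0.048, -0.0060 and -0.028, so that the order of the complexes depends on the DD library kept. Without both replicates 2 they were -0.46, -0.33, -0.51 and -0.41. Differences between complexes were not tested.

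Ndufb8, a supernumerary subunit of the membrane arm, was measured at 42.6 and 34.1 CPM in WT, 24.3 and 29.2 in DD and 24.6 and 24.7 with rDKK3. Both Dkk3-null groups lay below WT without overlap. The log2 fold change of DD against WT was -0.52 ± 0.17 (SE, edgeR, adjusted p = 0.586, unadjusted p = 0.0177), the smallest p of a member in this comparison. In the GENCODE M39 annotation, 68.6% of the bases of its canonical transcript lie under exons of other genes on the same strand, where union counting assigns a read to neither gene, so its counts may cover only the rest. Ndufa2, a supernumerary subunit of the N module, had 149 and 118 CPM in WT, 86.3 and 107 in DD and 94.2 and 89.0 with rDKK3, with a log2 fold change of -0.46 ± 0.18 in DD. Uqcrq, a small subunit of complex III, had 372 and 315 CPM in WT, 212 and 279 in DD and 247 and 224 with rDKK3, with a log2 fold change of -0.48 ± 0.20. All 3 genes were lowest in DD 1 and highest in WT 1, and none passed the test. Without both replicates 2 the log2 fold changes were -0.66 for Ndufb8, -0.63 for Ndufa2 and -0.70 for Uqcrq.

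Some members did not share the direction. Ndufs1, the largest iron-sulfur subunit of complex I, had 51.5 and 69.0 CPM in WT, 70.4 and 69.1 in DD and 67.1 and 66.8 with rDKK3, a log2 fold change of 0.21 ± 0.17 in DD against WT. Here WT 1 was the low library, and WT 2 lay at the level of DD. Atp5b had 1240 and 1228 CPM in WT, 1380 and 1244 in DD and 1275 and 1244 with rDKK3, a log2 fold change of 0.09 ± 0.17. Its catalytic partner Atp5a1, the alpha subunit, had 858 and 788 CPM in WT, 902 and 802 in DD and 847 and 835 with rDKK3, and its groups overlapped. Ndufa10, a supernumerary subunit of complex I, had 81.8 and 96.3 CPM in WT and 101 and 94.4 in DD, and the groups overlapped as well.

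Grouped by role, the 16 nuclear core subunits had a median log2 fold change of -0.11 in DD against WT, with 11 below 0, and the 57 supernumerary subunits tested had -0.30, with 54 below 0. The 8 assembly factors of complex I were all below 0, with a median of -0.29. Transcript length differed between these roles, with a median canonical length of 1682 bases for core and 971 bases for supernumerary subunits. The trend with length was also removed from each library, using the merged length of all exons of a gene, which is not the canonical length. The core subunits then had a median of 0.01, the supernumerary subunits -0.19 and the assembly factors -0.21. Single libraries moved these medians further. Leaving out DD 1 gave -0.066 for core and -0.076 for supernumerary subunits, and leaving out WT 1 gave 0.0 and -0.10. Leaving out DD 2 gave -0.16 and -0.48, and so did leaving out both replicates 2. The assembly factors had -0.13, -0.13, -0.38 and -0.38 in the same order. The difference between the roles was not tested.

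**Figure D4:**
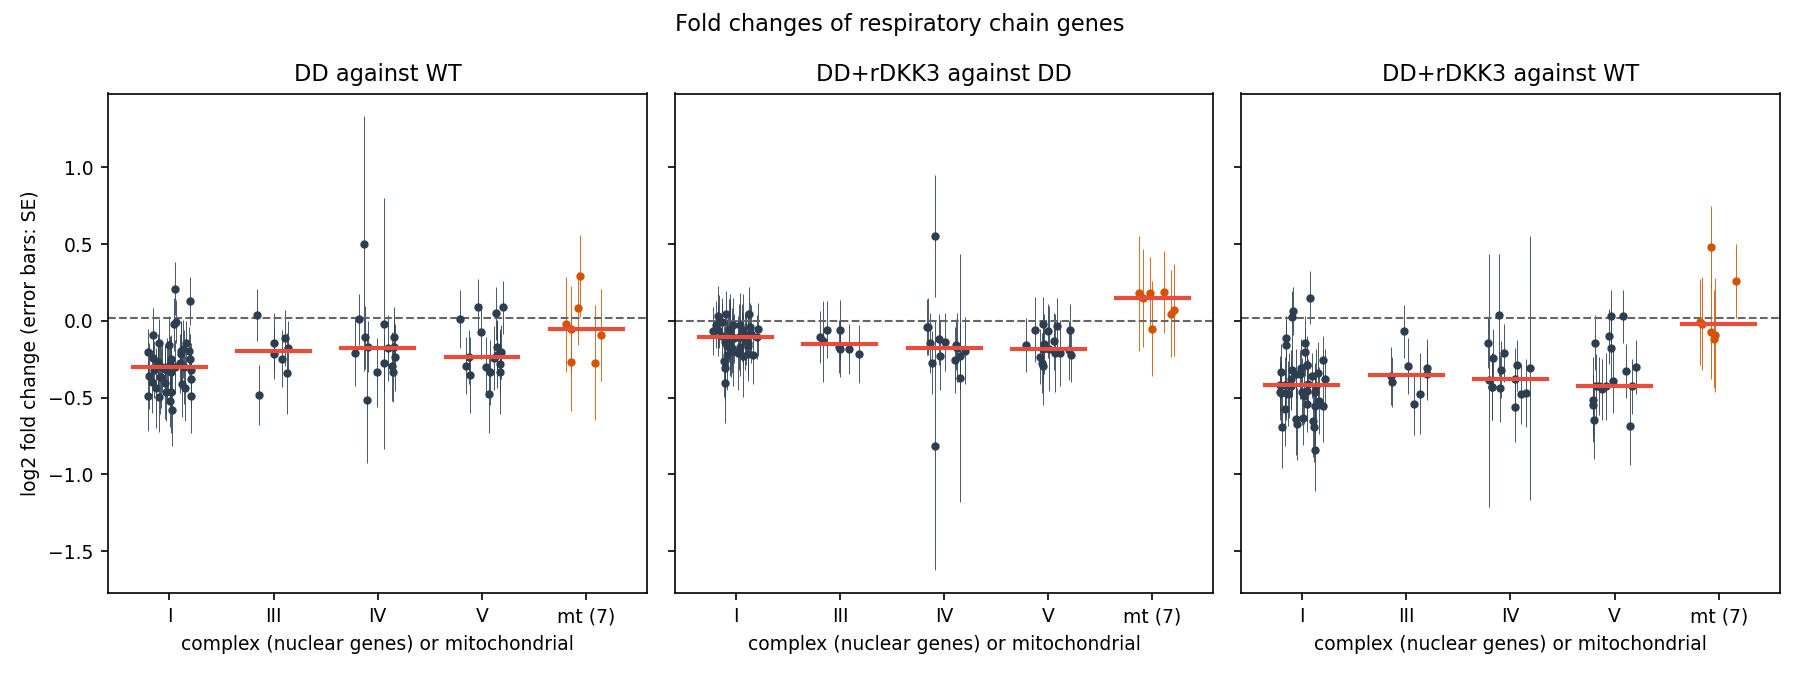
log2 fold change (y axis, error bars SE from edgeR) of each tested nuclear member by complex and of the 7 mitochondrial genes not wholly in the chromosome 1 copy (x axis), in the 3 comparisons, with a red bar at each median and a dashed line at the median of all genes tested. The nuclear medians lay between -0.18 and -0.30 in DD against WT, -0.10 and -0.18 in DD + rDKK3 against DD and -0.35 and -0.42 in DD + rDKK3 against WT.

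DD + rDKK3 was next set against DD, which addresses the added protein. Of all genes tested, 0 were called by edgeR (0.0%), and 204 were lower (1.38%) and 88 higher (0.597%) at an unadjusted p under 0.05. DESeq2 called 11 genes (0.185%), limma-voom 0 and edgeR without the filter 73 (0.275%). No member was called by any of these fits or had an unadjusted p under 0.05. The nuclear members had a median log2 fold change of -0.13, with 81 of 85 below 0 and 4 above, beside 50.5% and 49.5% of all genes. In 11 members both DD + rDKK3 libraries lay below both DD libraries, near the background of 14.4% of all genes, and in 1 above, against 15.1%. The sign of the median rests on DD 2, a library with high fibroblast transcripts. Without it the median was 0.04 with 30 of 86 genes below 0, and without both replicates 2 it was 0.03. Without DD 1 it was -0.32. The medians of complexes I, III, IV and V were -0.10, -0.15, -0.17 and -0.18. With both replicates 2 left out they were 0.05, -0.0056, 0.07 and 0.0073. The core subunits, supernumerary subunits and assembly factors of complex I had -0.082, -0.14 and -0.17. With both replicates 2 left out these were -0.030, 0.060 and -0.076.

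The genes of lowest p in this comparison were Ndufaf6, Ndufs8 and Ndufaf8. Ndufaf6, an assembly factor that acts on the mitochondrially made ND1 subunit, had 7.26 and 6.32 CPM in WT, 4.40 and 5.64 in DD and 4.22 and 3.33 with rDKK3. Its log2 fold change was -0.41 ± 0.26 against DD (edgeR adjusted p = 1.00). Ndufs8, a core iron-sulfur subunit, had 76.7 and 69.8 CPM in WT, 63.0 and 69.5 in DD and 58.6 and 55.8 with rDKK3, a log2 fold change of -0.21 ± 0.14 against DD. Ndufaf8, another assembly factor, had 18.4 and 13.3 CPM in WT, 12.2 and 14.9 in DD and 10.9 and 11.1 with rDKK3, a log2 fold change of -0.30 ± 0.22. Without both replicates 2 these values were -0.052 for Ndufaf6, -0.099 for Ndufs8 and -0.16 for Ndufaf8. Of the tested members, only 1 lay above DD without overlap, Cox7a1, the isoform of subunit VIIa found in heart and muscle, with 3.44 and 2.32 CPM in WT, 1.37 and 2.64 in DD and 2.80 and 3.06 with rDKK3, a log2 fold change of 0.55 ± 0.40 (1.03 without both replicates 2).

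The comparison of DD + rDKK3 with WT used the WT libraries again, and its values are therefore not independent of those of DD against WT. By edgeR, 0 members were called, against 7 of 14738 genes (0.0475%), and the lowest adjusted p of a member was 0.322. At an unadjusted p under 0.05, 26 of 85 nuclear members were lower and 0 higher, where 8.01% of all genes were lower and 7.34% higher. With libraries scaled by their totals alone the count of 26 was 3, and the share of all genes in that fit is not given here. Leaving out single libraries moved the count in both directions, and for those fits only medians are given. DESeq2 and limma-voom called no member, against 0.975% and 0.0204% of genes. The nuclear median was -0.41, with 79 of 85 below 0, beside 48.4% of all genes. In 71 members both DD + rDKK3 libraries lay below both WT libraries and in 1 above, against 27.1% and 27.9% of all genes. Among all genes with short canonical transcripts the share below was larger, 42.8% up to 750 bases and 50.9% from 750 to 1500 bases. At an unadjusted p under 0.05 (edgeR), 13.9% and 20.3% of these short genes were lower. The nuclear median without WT 1 was -0.23 and without WT 2 was -0.55. Without both replicates 2 of the Dkk3-null groups it was -0.41.

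By complex, the medians of DD + rDKK3 against WT were -0.42 in complex I, -0.35 in complex III, -0.38 in complex IV and -0.42 in complex V. The supernumerary subunits had a median of -0.43 with 56 of 57 below 0, the assembly factors -0.47 with 8 of 8, and the core subunits -0.17 with 12 of 16. Without WT 1 these were -0.25, -0.27 and -0.058, and without both replicates 2 they were -0.44, -0.46 and -0.18. The complexes had -0.41, -0.36, -0.45 and -0.40 without both replicates 2. Ndufb8 had again the smallest p of a member, with a log2 fold change of -0.64 ± 0.17 (edgeR adjusted p = 0.322, unadjusted p = 0.00676). Ndufaf6 followed with -0.84 ± 0.26, or -0.68 without both replicates 2. Ndufa7, a supernumerary subunit of the N module, had 168 and 133 CPM in WT, 86.0 and 128 in DD and 98.6 and 88.4 with rDKK3, a log2 fold change of -0.69 ± 0.23. Without the filter on low counts Ndufa7 was the 1 member called by edgeR, at an adjusted p of 0.0436, where 788 of 26506 genes (2.97%) were called. Atp5b alone lay above WT without overlap, by 0.03 ± 0.17 on the log2 scale.

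These differences depend in part on the scaling. When libraries were scaled by their totals alone, the median of all genes shifted to 0.22 for DD and 0.18 for DD + rDKK3, each against WT, and the nuclear members had medians of -0.06 (52 of 85 below 0) and -0.23 (72 of 85). Relative to all genes the nuclear members were then lower by a log2 difference of -0.28 and -0.41, close to -0.28 and -0.43 with TMM. The acinar enzymes, which weigh most in the totals, took 20.9% and 18.7% in WT, 17.0% and 14.7% in DD and 19.3% and 16.5% with rDKK3.

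Length moved with the result. Nuclear respiratory chain transcripts are short, with a median canonical length of 1079 bases against 3098 for all genes tested, and short genes as a whole were lower in the Dkk3-null groups. Over 14683 genes, which share the same libraries and are no independent replicates, Spearman's rho of the log2 fold change with length was 0.37 in DD against WT, 0.25 in DD + rDKK3 against DD and 0.44 in DD + rDKK3 against WT. Among the 85 nuclear members it was 0.14, 0.30 and 0.24. In the class of 750 to 1500 bases, the members had a median of -0.23 and all genes -0.22 in DD against WT, and -0.40 and -0.31 in DD + rDKK3 against WT. Up to 750 bases the medians were -0.31 for members and -0.19 for all genes in DD and -0.46 and -0.27 with rDKK3. Over 3000 bases they were -0.20 and 0.13 in DD and -0.43 and 0.19 with rDKK3. Up to 750 bases, 25.9% of members in DD and 88.9% with rDKK3 lay below WT without overlap, against 25.25% and 42.8% of all genes. From 750 to 1500 bases the shares were 26.9% and 88.5% against 33.8% and 50.9%. From 1500 to 3000 bases they were 34.8% and 73.9% against 25.55% and 34.5%, and over 3000 bases 22.2% and 77.8% against 12.2% and 15.1%. With the trend in merged exon length removed from each library, the nuclear medians were -0.19, -0.10 and -0.25 in the 3 comparisons. In those fits 1, 0 and 14 members were lower at an unadjusted p under 0.05 (edgeR). The share of all genes in them is not given here.

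**Figure D5:**
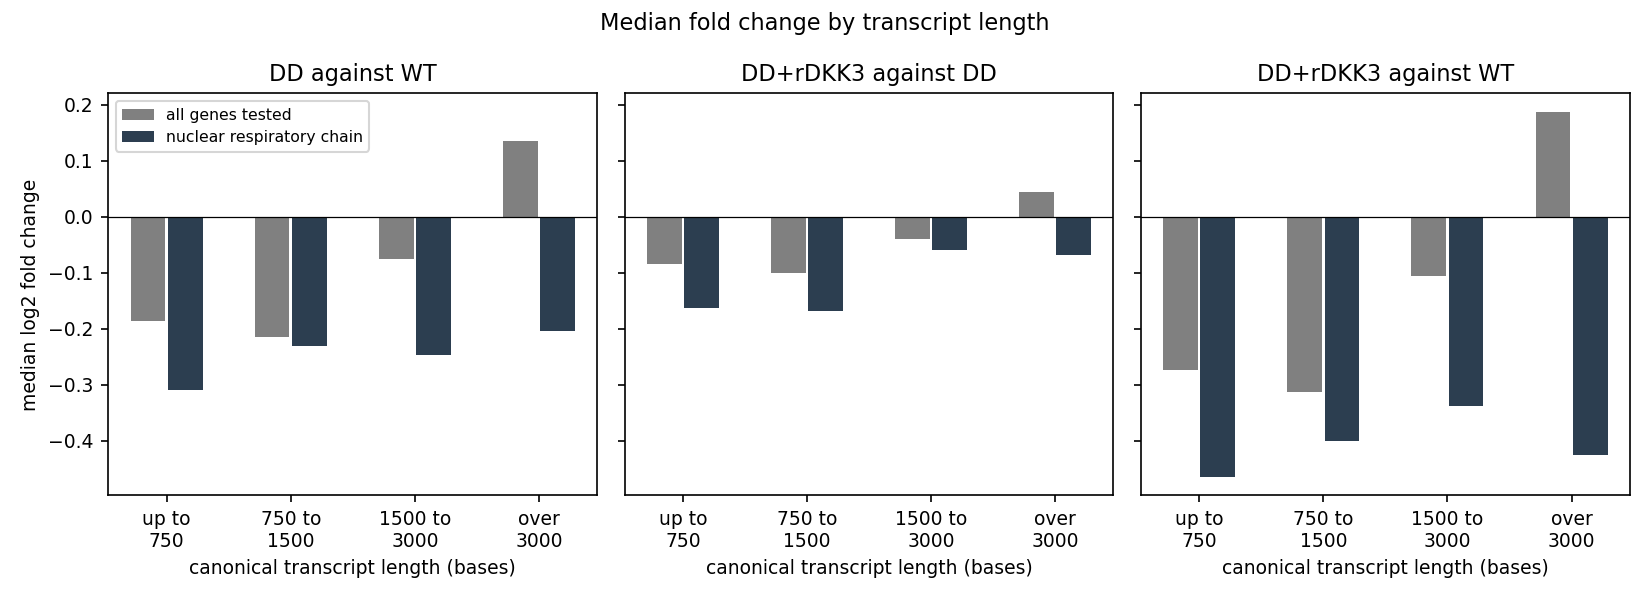
Median log2 fold change (y axis, bars from 0) of all genes tested and of nuclear respiratory chain genes in 4 classes of canonical transcript length in bases (x axis), for the 3 comparisons. In DD against WT the bars nearly met at 750 to 1500 bases (-0.23 and -0.22) and lay apart over 3000 bases (-0.20 and 0.13).

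The tissue isoforms set the outliers of complex IV. Cox4i1, the general form of subunit IV, had 769 and 620 CPM in WT, 465 and 666 in DD and 499 and 504 with rDKK3, a log2 fold change of -0.30 ± 0.22 in DD against WT with overlapping groups (-0.58 without both replicates 2). Cox4i2, its hypoxia-linked form known from lung, vessel wall and pericytes, had 0.883 and 0.842 CPM in WT, 0.378 and 2.11 in DD and 0.369 and 1.02 with rDKK3. Ndufa4, once assigned to complex I and now to complex IV, had 249 and 239 CPM in WT, 184 and 269 in DD and 183 and 192 with rDKK3. Its relative Ndufa4l2 had 5.59 and 2.46 CPM in WT, 0.898 and 7.05 in DD and 2.43 and 3.65 with rDKK3. Both minor isoforms were highest in DD 2 and within DD differed between libraries by more than between groups. Pericyte and smooth muscle markers (12 genes, none at 0 throughout) summed to 32.3 and 52.1 CPM in WT, 30.2 and 69.8 in DD and 35.7 and 67.1 with rDKK3, highest as a sum in the same library. Single markers did not all follow, as Rgs5 had 5.79 and 10.2 CPM in WT, 4.07 and 9.40 in DD and 5.38 and 5.86 with rDKK3, and Mcam, Notch3 and Des were also highest in WT 2. Their part in these isoforms was not tested.

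For the remaining isoform pairs the general form carried the signal. Cox6a1 had 311 and 238 CPM in WT, 229 and 258 in DD and 241 and 234 with rDKK3, whereas the muscle form Cox6a2 had 0 to 2 counts per library. Cox6b1 had 426 and 343, 269 and 384, and 283 and 288 CPM, whereas the testis form Cox6b2 had 5 to 9 counts. Cox7a2 had 232 and 186, 148 and 214, and 148 and 161 CPM, and per kilobase Cox7a2 had a mean level of 223 CPM against 5.90 for Cox7a1. Cox8a had 209 and 170, 164 and 173, and 155 and 156 CPM, whereas Cox8b and Cox8c had 0 counts in all 6 libraries, which allows up to 3 counts in each (at most 0.294 CPM, counting error only). Markers of adipocytes, brown fat and striated muscle summed to 4.46 to 12.1 CPM over 12 genes. Most of the sum was Cidea, a fat cell marker, at 3.22 to 10.7 CPM. The 4 genes at 0 throughout, Myh1, Myh6, Myh7 and Actn2, are muscle markers. Cox7a2l, which joins complexes III and IV into supercomplexes, had 277 and 221 CPM in WT, 187 and 223 in DD and 205 and 194 with rDKK3, though 46.8% of its 50-base windows are copied.

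The mitochondrial genome is transcribed as long precursors from each strand, which are cut into single messages at the tRNAs. All of its protein genes but mt-Nd6 are read from the same precursor. The order of their levels depends on whether reads of copied sequence were lost. Per kilobase of the whole transcript, which assumes that none were, mt-Nd1 had 2417 CPM, mt-Co1 2322, mt-Cytb 1682, mt-Nd2 991, mt-Nd6 579, mt-Nd5 448 and mt-Nd4 441. Per kilobase of sequence without an exact copy, which assumes that all were, mt-Co1 was highest with 4909 CPM, followed by mt-Nd1 with 2547 and mt-Cytb, the mitochondrial subunit of complex III, with 1758. mt-Nd4 had 1211, mt-Nd2 1134, mt-Nd6 639 and mt-Nd5 498. On this latter scale mt-Co1, mt-Nd1 and mt-Cytb held the first 3 places in this order in every library, while mt-Nd4 and mt-Nd2 changed places between libraries.

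Summed over the 7 genes that could be read, the mitochondrial members had 12660 and 8853 CPM in WT, 10290 and 10160 in DD and 7771 and 13750 with rDKK3. The DD + rDKK3 libraries were the lowest and the highest of all 6, so the spread within that group exceeded every difference between groups. Centered scores of the 7 genes were 0.22 and -0.23 in WT, -0.01 and -0.04 in DD and -0.37 and 0.43 with rDKK3, with a pooled SD within groups of 0.38 against 0.19 for the nuclear members. The order of libraries was not that of the nuclear members, whose values in both DD + rDKK3 libraries were alike.

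No mitochondrial gene was called by edgeR in any comparison, against 0.0407%, 0.0% and 0.0475% of all genes. At an unadjusted p under 0.05 the count was 0 of 11 in each. Of all genes, 3.99%, 1.38% and 8.01% were lower at that p and 4.27%, 0.597% and 7.34% higher. The 7 readable genes had median log2 fold changes of -0.06 in DD against WT, 0.15 in DD + rDKK3 against DD and -0.02 in DD + rDKK3 against WT. In DD, 1 of the 11 tested genes (9.09%) lay above WT without overlap, against 18.1% of all genes. This gene was mt-Nd5, with 654 and 699 CPM in WT, 849 and 806 in DD and 683 and 1207 with rDKK3. Its log2 fold change was 0.29 ± 0.27 in DD (edgeR adjusted p = 0.689) and 0.48 ± 0.27 in DD + rDKK3 (adjusted p = 0.386) against WT, the latter 0.019 without both replicates 2. mt-Cytb had 2711 and 1461 CPM in WT, 1675 and 1783 in DD and 1340 and 2577 with rDKK3, and its groups overlapped. The 2 ribosomal RNAs of the organelle, which are not members, summed to 6809 and 3119, 2359 and 4847, and 2778 and 4510 CPM, yet another order of libraries.

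Within the mitochondrial counts the shares of mt-Co1 and mt-Nd1 were steadier than the level. mt-Co1 took 32.3% to 36.0% of the counts of the 7 genes and mt-Nd1 20.9% to 23.1% across libraries. mt-Nd5 took 5.17% and 7.90% in WT, 8.26% and 7.94% in DD and 8.79% and 8.78% with rDKK3. mt-Cytb took 21.4% and 16.5% in WT, 16.3% and 17.6% in DD and 17.2% and 18.7% with rDKK3. For both genes WT 1 stood at 1 end of the range, low for mt-Nd5 and high for mt-Cytb, and WT 2 lay near the Dkk3-null libraries. With any 1 library left out, the log2 fold change of mt-Nd5 in DD against WT ranged from 0.26 to 0.35.

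The promoters of the nuclear members were examined because many such genes are known to carry sites for the nuclear respiratory factor NRF1, for the ETS family (which includes GABP, also called NRF2) and for YY1. RefSeq promoters of 250 bases before to 50 after the start (GRCm38.p6 table, located by exact match in GRCm39) were at hand for 74 member genes. The NRF1 motif (GCGCA, any base, GCGC) was found on either strand in 17 of 74 (23.0%) against 5.2% of 27025 genes, CCGGAAG of the ETS family in 17 (23.0%) against 9.9%, AAGATGGCG of YY1 in 8 (10.8%) against 1.6%, and the TATA letters TATAAA in 8 (10.8%) against 15.7%. These are matches of letters and not measured sites. The 3 promoters below show the range of arrangements, with 3 NRF1 matches in Ndufb4, 2 NRF1 and 1 ETS match in Cox6a1, and 1 NRF1 and 1 YY1 match in Ndufs6. All lie on the minus strand of GRCm39 and capitals mark the matches.
Ndufb4, chr16:37474681-37474980: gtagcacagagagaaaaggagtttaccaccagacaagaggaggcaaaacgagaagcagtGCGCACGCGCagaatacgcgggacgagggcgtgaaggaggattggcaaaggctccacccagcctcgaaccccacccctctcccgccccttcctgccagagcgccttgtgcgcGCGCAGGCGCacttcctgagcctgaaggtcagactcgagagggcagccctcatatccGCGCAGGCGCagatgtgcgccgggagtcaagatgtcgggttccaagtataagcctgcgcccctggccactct
Cox6a1, chr5:115486968-115487267: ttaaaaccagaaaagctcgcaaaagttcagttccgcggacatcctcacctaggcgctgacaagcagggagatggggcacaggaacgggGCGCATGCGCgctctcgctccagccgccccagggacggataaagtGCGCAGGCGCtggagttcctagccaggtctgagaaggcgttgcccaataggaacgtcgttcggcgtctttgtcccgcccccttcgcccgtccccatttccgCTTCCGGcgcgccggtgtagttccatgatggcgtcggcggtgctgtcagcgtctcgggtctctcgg
Ndufs6, chr13:73476552-73476851: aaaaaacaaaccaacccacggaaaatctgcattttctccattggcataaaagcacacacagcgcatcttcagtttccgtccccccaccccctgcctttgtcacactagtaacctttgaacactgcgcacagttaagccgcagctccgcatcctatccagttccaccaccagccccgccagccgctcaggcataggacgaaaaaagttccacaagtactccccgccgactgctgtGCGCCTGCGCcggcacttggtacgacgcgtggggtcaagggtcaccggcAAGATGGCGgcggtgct

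Members with and without a match are given side by side, without a test. In DD against WT, the 17 tested members with an NRF1 match had a median log2 fold change of -0.29 and the 54 without -0.26, and in DD + rDKK3 against WT the values were -0.42 and -0.39. For the ETS letters the medians in DD + rDKK3 against WT were -0.43 with and -0.38 without, and for YY1 -0.43 and -0.40. Both orders were reversed when DD was set against WT. There the ETS medians were -0.24 with a match and -0.27 without, and the YY1 medians -0.23 and -0.28. TATA letters were matched in only 6 tested members, whose median for DD against WT was -0.37, beside -0.25 for the 65 without. With rDKK3 against WT the TATA medians were -0.56 and -0.39. Of the 3 genes printed, Cox6a1 had log2 fold changes of -0.17 ± 0.19 in DD and -0.21 in DD + rDKK3 against WT, Ndufb4 -0.46 ± 0.27 and -0.69, and Ndufs6 -0.36 ± 0.22 and -0.46. Of the 15 known regulators listed, 13 were tested, with a median of 0.14 in DD and 0.26 in DD + rDKK3 against WT, 11 of them above 0 in each, and none called by edgeR. Ppargc1a, a coactivator of mitochondrial genes, had 5.10 and 11.9 CPM in WT, 12.2 and 11.9 in DD and 12.8 and 15.5 with rDKK3. Tfam, which packages the mitochondrial genome and takes part in its transcription, had 35.8 and 34.0, 25.5 and 32.1, and 24.7 and 23.4 CPM. Its log2 fold change was -0.54 ± 0.16 in DD + rDKK3 against WT (edgeR adjusted p = 0.322).

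Related genes outside the name rule were taken from lists. Of the 8 genes of complex II and its assembly, which are all nuclear, 7 were below 0 in DD against WT with a median of -0.27, and 7 in DD + rDKK3 against WT with -0.39. The assembly factor Sdhaf3 had 16.3 and 11.7 CPM in WT, 8.89 and 10.6 in DD and 8.07 and 8.44 with rDKK3, whereas the flavoprotein subunit Sdha had 109 and 128, 174 and 125, and 158 and 155 CPM. Electron carriers with ubiquinone synthesis, and complex III subunits outside the rule, had medians of -0.20, -0.12 and -0.22 in the 3 comparisons over 15 genes. Of these, Cycs, cytochrome c itself, had 84.0 and 89.1, 93.4 and 109, and 79.6 and 90.5 CPM. Assembly factors outside the rule had -0.21, -0.12 and -0.25 over 38 genes, and mitochondrial transcription, replication and RNA processing -0.11, -0.07 and -0.12 over 28. Mitochondrial carriers and uncoupling genes, among them the outer membrane channel gene Vdac3, had -0.08, -0.14 and -0.16 over 15. The tricarboxylic acid cycle had 0.08, -0.04 and -0.07 over 18 genes. Of these, Ogdh had 146 and 153 CPM in WT and 230 and 162 in DD, and Idh2 79.1 and 89.1 in WT, 60.2 and 60.5 in DD and 84.6 and 72.6 with rDKK3. Atpif1, the inhibitor of ATP synthase, whose symbol in the table falls outside the name rule, had 161 and 154 CPM in WT, 99.0 and 122 in DD and 101 and 88.5 with rDKK3, a log2 fold change of -0.74 ± 0.17 in DD + rDKK3 against WT (edgeR adjusted p = 0.322). No gene of these lists was called by edgeR in any of the 3 comparisons.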

How the data were processed

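The authors deposited raw counts of read pairs per gene, made with STAR 2.7.9a on GRCm39 and the basic GENCODE M32 annotation from strand-specific 50-base paired-end reads, with union counting and without secondary alignments. Whether poly(A) selection or ribosomal depletion was used is not given in the sources used here. Here, 92 spike-in rows were dropped and genes kept by filterByExpr (minimum count 10, minimum total 15). The 14738 genes kept were scaled by TMM and fitted with edgeR 4.0.16 (R 4.3.3, quasi-likelihood F test, two-sided, 6 libraries in 3 groups, Benjamini-Hochberg adjustment over all genes kept, called under 0.05). It left 3 residual degrees of freedom, and the common BCV was 0.2148. DESeq2 1.42.0 and limma-voom (limma 3.58.1) were alternatives. CPM use TMM-scaled totals and log2 CPM a prior count of 2. Canonical transcripts are those of the later GENCODE M39, in which all 106 members lay at overlapping positions, and exact 50-base copies were found with blastn 2.17.0 and string matching. Length classes and correlations used the canonical length. The length trend was removed with the merged length of all exons of a gene's basic M39 transcripts.

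Members and lists were chosen with earlier results of these data known. Members given in all libraries are the mitochondrial genes, up to 3 nuclear members per direction and comparison without overlap that had the smallest p (average log2 CPM 1 or more), the extremes of level per complex, the isoform pairs, Cox7a2l and the ATP synthase inhibitor. Of the related lists up to 2 genes per direction could be named, besides Ppargc1a and Tfam. Atp5a1, Ndufa10, Ndufb4, Ndufs6 and the split by sequence copy were chosen after their values were seen.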

Additional observations from a re-analysis of the deposited data

How the results depend on the processing

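No respiratory chain gene was called in DD against WT or in DD + rDKK3 against DD under any alternative run. In DD + rDKK3 against WT the 1 exception was the fit without a filter, which called 1 member, Ndufa7, at a log2 fold change of -0.64. The nuclear median kept its sign under all alternatives in the comparisons with WT, and in DD + rDKK3 against DD it turned when DD 2 was left out, alone or with DD + rDKK3 2 (0.03). The median for DD against WT was -0.057 with library size alone, a scaling that shifts all genes. With any 1 library left out, it ranged from -0.45 to -0.08 in DD against WT, from -0.32 to 0.04 in DD + rDKK3 against DD and from -0.55 to -0.23 in DD + rDKK3 against WT. For the mitochondrial genes these runs took the median over all genes tested, 11 in the main fit, and not over the 7 readable genes. The set thus includes genes inside the copied stretch, which had few counts. This median was -0.09, 0.07 and -0.07 in the main fit. It changed sign with the library left out, with ranges of -0.27 to 0.26, -0.40 to 0.41 and -0.51 to 0.30. Without both replicates 2 of the Dkk3-null groups, an alternative added after the data were seen, it was -0.39 in DD + rDKK3 against DD and -0.51 in DD + rDKK3 against WT.

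The count of all genes called depended most on the tool and the filter. In DD against WT it was 528 without a filter, 78 with DESeq2, 14 without both replicates 2 and 2 to 6 with 1 library left out. In DD + rDKK3 against DD it was 73 without a filter, 11 with DESeq2 and 0 with 1 library left out. In DD + rDKK3 against WT it was 788 without a filter, 58 with DESeq2, 3 with limma-voom and 2 to 9 with 1 library left out. The cause was not tested.

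The titles of DD + rDKK3 1 and 2 carry the names of DD 1 and 2, but no label names an animal behind the numbers, which were not taken as pairs. Deviations from the group means correlated at -0.387 between WT and DD, -0.247 between WT and DD + rDKK3 and 0.65 between DD and DD + rDKK3. A replicate block over all libraries gave nuclear medians of -0.27, -0.13 and -0.42 and called 7, 0 and 5 genes. A replicate block within the Dkk3-null libraries gave -0.37, -0.12 and -0.51 and called 20, 0 and 15 genes, none of them a member. At an unadjusted p under 0.05 it had 17, 0 and 46 nuclear members lower, against 4, 0 and 26 without a block. The share of all genes with the block is not given here, so these counts do not tell members from all genes.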
